A study of Mus musculus with 16 samples.

Results

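The genes of MHC class II presentation were examined in the kidneys of lupus-prone mice, as 9 members chosen by name: H2-Aa, H2-Ab1, H2-Eb1, Cd74, H2-DMa, H2-DMb1, H2-Oa, Ctss, and Ciita. A member was measured by the array probes that target its transcripts, and all 9 had a probe above background on all 16 arrays, among 22911 named genes on the array, of which 16390 passed the filter for testing. Kidney RNA of 16 mice, labelled as 6 months old, was hybridized to one-color arrays with 1 mouse per array and 4 mice per genotype. Wild-type mice and those with Sting gt/gt alone were C57BL/6, whereas the Fcgr2b-/- mice and the Fcgr2b-/-.Sting gt/gt mice (double-deficient) were of a 129/C57BL/6 background, so the Fcgr2b genotype and the strain cannot be told apart. Fcgr2b encodes the inhibitory receptor for IgG, and its germline deletion on this background gives a lupus-like disease. Sting gt is the Goldenticket allele, a point mutation that acts as a functional knockout of STING, the adaptor of cytosolic DNA sensing. The heatmaps of the study head the lupus columns as Fcgr2b-/-.Sting wt/gt, while the labels of these mice name the Fcgr2b deletion alone. Replicates were separate mice.

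Class II molecules are carried mainly by dendritic cells, B cells, and macrophages, and tubular epithelium can gain them in inflammation. The alpha and beta chains assemble in the endoplasmic reticulum with the invariant chain (Cd74), which is cut in endosomes by proteases such as cathepsin S (Ctss). The remaining fragment is exchanged for peptide by H2-DM, which H2-O restrains. The coactivator CIITA (Ciita) does not bind DNA itself but joins RFX, CREB, and NF-Y on the X and Y boxes before class II genes, and interferon-gamma induces it.

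The promoter letters bear on this control, so stretches of them are shown first. The RefSeq promoter table (GRCm38.p6, 250 bases before to 50 after each start) held 7 promoters of 6 members, H2-Aa, H2-Eb1, H2-DMa, H2-DMb1, H2-Oa, and Ctss. Of the stretches shown, each of 100 bases and written 5′ to 3′ on the strand of the gene, those of H2-Eb1 (chr17:34305758-34305857, plus strand), H2-DMb1 (chr17:34153067-34153166, plus strand), and H2-Aa (chr17:34287820-34287919, minus strand) carry letters of the X or Y box, and that of Ctss (chr3:95526719-95526818, plus strand) carries those of an interferon response element. Capitals mark ACNGATG, letters within the X box, ATTGG, the core of the Y box (or CCAAT on the other strand), and in Ctss GAAANNGAA.
H2-Eb1: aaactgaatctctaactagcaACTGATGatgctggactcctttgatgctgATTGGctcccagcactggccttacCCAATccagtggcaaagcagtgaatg
H2-DMb1: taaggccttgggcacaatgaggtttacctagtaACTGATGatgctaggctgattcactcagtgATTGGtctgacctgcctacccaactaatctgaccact
H2-Aa: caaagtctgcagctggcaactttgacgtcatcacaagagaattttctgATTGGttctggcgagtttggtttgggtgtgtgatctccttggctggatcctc
Ctss: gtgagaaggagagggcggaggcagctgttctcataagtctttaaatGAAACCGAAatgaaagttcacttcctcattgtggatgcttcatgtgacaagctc
ACNGATG and ATTGG, searched on both strands, stood in the 300 bases of 9.85% and 37.4% of the 32851 promoters of the table, and both together in 3.65%. In H2-Eb1 their first bases lay at -88 and -59 from the start, and in H2-DMb1 at -91 and -61. ATTGG lay at -48 in H2-Aa and at -43 in H2-Oa, and ACNGATG farther from it, at -232 on the other strand in H2-Aa and at -137 in H2-Oa. ACNGATG lay at -206 in Ctss, and ATTGG at -198 in 1 of the 2 promoters of H2-DMa. GAAANNGAA, found in 8.56% of the promoters, lay at -21 in Ctss and in no other of these 7 promoters. A match of letters is a description and not a bound site, and an X box with other letters would be missed by this search.

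Levels are processed intensities in log2, from which the 75th percentile of each array was taken away, so that 0 is the signal of that percentile. Levels of different genes come from different probes and were not set against each other. A gene was called changed in limma when its means differed at least 2-fold with a p under 0.05 after Benjamini-Hochberg adjustment. The 75th percentile was 276 to 656.9 in intensity, and 28441 to 35564 probes were above background on an array. The Fcgr2b probe had a level of 1.14 to 2.13 in wild-type, 0.02 to 0.70 in Fcgr2b-/-, -0.40 to 0.50 in double-deficient, and -0.19 to 1.54 in Sting gt/gt mice, so that 1 Sting gt/gt mouse lay within the range of the deficient mice. Whether the probe lies in the deleted part was not known. The Sting1 probe cannot check the gt allele, since a point mutation leaves the transcript; its highest levels were 2.69 and 2.49 in Fcgr2b-/- mice 1 and 4.

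All 9 members had a higher mean in the Fcgr2b-/- kidneys than in the wild-type kidneys, and all 9 had a lower mean in the double-deficient kidneys than in the Fcgr2b-/- kidneys. The median log2 change was 1.15 in the first comparison and -1.01 in the second, and the double-deficient mice differed from wild-type by a median of 0.02. No member was called in any comparison. The Fcgr2b-/- mice were far apart: mice 1 and 4 held the 2 highest levels of all 16 mice in 8 of the 9 members, a pattern that 6.88% of 16382 genes showed, while mice 2 and 3 lay near the wild-type mice.

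**Figure D1:**
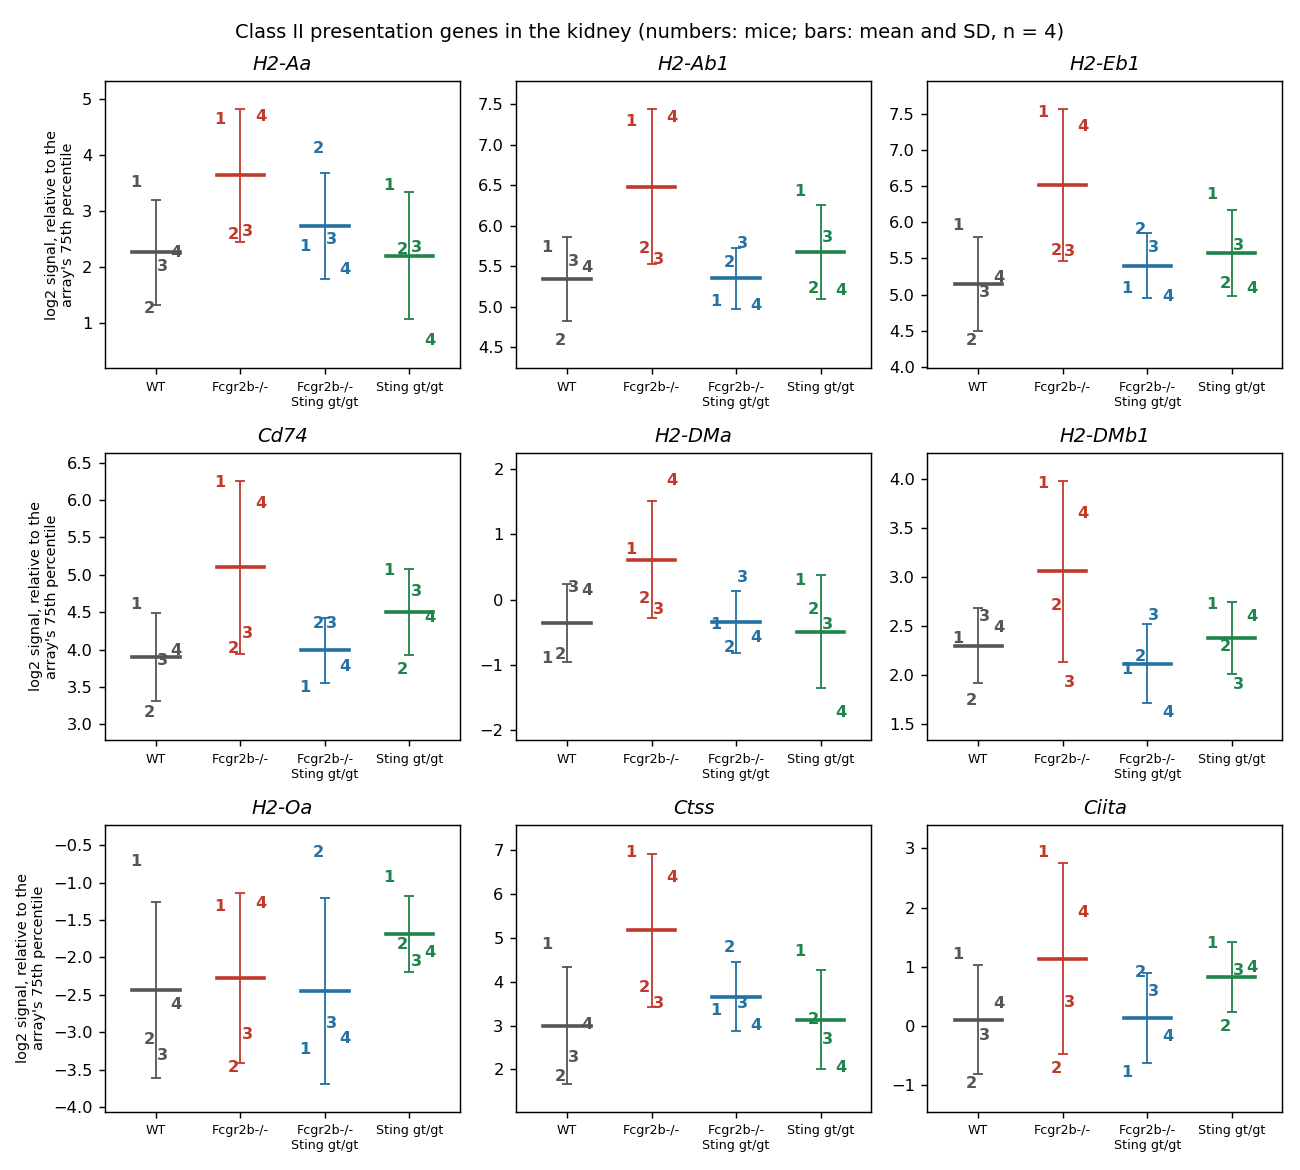
Level (y axis, log2 signal above or below the 75th percentile of its array) of the 9 members in the 4 genotypes (x axis), where each number is a mouse and the bars give the mean and SD of 4 mice. Fcgr2b-/- mice 1 and 4 hold the 2 highest levels in every panel but that of H2-Oa, and Fcgr2b-/- mice 2 and 3 overlap the wild-type mice.

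The chains of the classical class II molecules came first. H2-Ab1 encodes the beta chain of I-A. Its log2 level was 5.73, 4.58, 5.56, and 5.49 in wild-type mice 1 to 4, 7.29, 5.72, 5.58, and 7.34 in Fcgr2b-/- mice 1 to 4, 5.06, 5.54, 5.78, and 5.01 in double-deficient mice 1 to 4, and 6.42, 5.22, 5.86, and 5.20 in Sting gt/gt mice 1 to 4. Fcgr2b-/- mice 1 and 4 were above every other mouse, whereas mice 2 and 3 were close to wild-type mice 1 and 3, and the groups overlapped. The level of H2-Aa, the alpha chain of I-A, was 3.51, 1.27, 2.01, and 2.26 in wild-type mice 1 to 4, 4.63, 2.58, 2.64, and 4.69 in Fcgr2b-/- mice 1 to 4, 2.36, 4.11, 2.49, and 1.96 in double-deficient mice 1 to 4, and 3.45, 2.31, 2.35, and 0.69 in Sting gt/gt mice 1 to 4. Next after Fcgr2b-/- mice 4 and 1 came double-deficient mouse 2, and the lowest was Sting gt/gt mouse 4. The level of H2-Eb1, the beta chain of I-E, was 5.95, 4.37, 5.02, and 5.24 in wild-type mice 1 to 4, 7.52, 5.61, 5.60, and 7.33 in Fcgr2b-/- mice 1 to 4, 5.09, 5.90, 5.65, and 4.97 in double-deficient mice 1 to 4, and 6.38, 5.15, 5.68, and 5.09 in Sting gt/gt mice 1 to 4. The order of the mice was close to that of H2-Ab1, with Sting gt/gt mouse 1 next after the high pair and wild-type mouse 2 last in both. H2-Ea, the alpha chain of I-E, had no named probe, so whether I-E was made cannot be read from these arrays.

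Of these 3 chains, H2-Eb1 was 2.58-fold higher in Fcgr2b-/- than in wild-type mice (log2 change 1.37, SE 0.48; limma adjusted p = 1), H2-Ab1 was 2.21-fold higher (1.15, SE 0.44; limma adjusted p = 1), and H2-Aa was 2.58-fold higher (1.37, SE 0.68; limma adjusted p = 1). The exact permutation test of 4 mice against 4, two-sided, gave p = 0.0857 for H2-Ab1 and H2-Eb1 and p = 0.143 for H2-Aa, where the smallest value it can give is 0.0286. In the double-deficient mice H2-Ab1 was 2.20-fold lower than in Fcgr2b-/- mice (log2 change -1.14, 95% interval -2.07 to -0.21; limma adjusted p = 1). H2-Eb1 was 2.16-fold lower (-1.11, -2.14 to -0.09) and H2-Aa 1.87-fold lower (-0.90, -2.36 to 0.55), each with an adjusted p of 1 in limma. H2-Ab1 was read by 3 further probes, which gave log2 changes of 1.16 to 1.28 in Fcgr2b-/- against wild-type and -1.15 to -1.07 in double-deficient against Fcgr2b-/- mice.

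The invariant chain and the genes of peptide loading showed the same 2 high mice. The level of Cd74, the chaperone that fills the groove of new class II molecules, was 4.60, 3.16, 3.86, and 3.99 in wild-type mice 1 to 4, 6.24, 4.01, 4.21, and 5.95 in Fcgr2b-/- mice 1 to 4, 3.49, 4.35, 4.34, and 3.77 in double-deficient mice 1 to 4, and 5.06, 3.74, 4.78, and 4.43 in Sting gt/gt mice 1 to 4. It was 2.30-fold higher in Fcgr2b-/- than in wild-type mice (log2 change 1.20, SE 0.49; limma adjusted p = 1) and 2.17-fold lower in double-deficient than in Fcgr2b-/- mice (-1.12, 95% interval -2.16 to -0.07; limma adjusted p = 1). The level of Ctss, the protease that trims the invariant chain, was 4.85, 1.84, 2.26, and 3.03 in wild-type mice 1 to 4, 6.95, 3.87, 3.50, and 6.37 in Fcgr2b-/- mice 1 to 4, 3.35, 4.78, 3.51, and 3.0 in double-deficient mice 1 to 4, and 4.70, 3.13, 2.68, and 2.04 in Sting gt/gt mice 1 to 4. Ctss had the widest spread of the members, 5.11 between its highest and lowest mouse, and wild-type mouse 1 exceeded Fcgr2b-/- mice 2 and 3. Its log2 change of 2.18 in Fcgr2b-/- mice (4.52-fold, SE 0.83; limma adjusted p = 1) was the highest of the 9, and its change in double-deficient against Fcgr2b-/- mice, -1.51 (95% interval -3.27 to 0.25), was the lowest.

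H2-DM is a dimer of H2-DMa and H2-DMb1. The level of H2-DMa was -0.90, -0.84, 0.18, and 0.13 in wild-type mice 1 to 4, 0.77, 0.01, -0.15, and 1.82 in Fcgr2b-/- mice 1 to 4, -0.37, -0.74, 0.34, and -0.58 in double-deficient mice 1 to 4, and 0.29, -0.15, -0.39, and -1.72 in Sting gt/gt mice 1 to 4. That of H2-DMb1 was 2.37, 1.74, 2.60, and 2.48 in wild-type mice 1 to 4, 3.96, 2.71, 1.93, and 3.65 in Fcgr2b-/- mice 1 to 4, 2.06, 2.19, 2.61, and 1.62 in double-deficient mice 1 to 4, and 2.72, 2.29, 1.91, and 2.60 in Sting gt/gt mice 1 to 4. For H2-DMb1, Fcgr2b-/- mouse 3 was below 3 of the 4 wild-type mice. The Fcgr2b-/- mean was higher than wild-type by 0.97 for H2-DMa (SE 0.49) and by 0.76 for H2-DMb1 (SE 0.39), and the double-deficient mean differed from the Fcgr2b-/- mean by -0.95 and -0.94 in log2, where the adjusted p of limma was 1 throughout. The level of H2-Oa, a chain of the H2-DM inhibitor made mainly in B cells and thymus, was -0.72, -3.09, -3.31, and -2.63 in wild-type mice 1 to 4, -1.32, -3.47, -3.03, and -1.28 in Fcgr2b-/- mice 1 to 4, -3.23, -0.60, -2.89, and -3.09 in double-deficient mice 1 to 4, and -0.93, -1.83, -2.05, and -1.94 in Sting gt/gt mice 1 to 4. H2-Oa was the exception among the members, since its highest mouse was double-deficient mouse 2 and its next wild-type mouse 1. Its mean differed by 0.16 in log2 between Fcgr2b-/- and wild-type mice (95% interval -1.29 to 1.62) and by -0.17 between double-deficient and Fcgr2b-/- mice (-1.63 to 1.28). Both signs turned when single mice were left out.

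The level of Ciita, the coactivator on which class II transcription depends, was 1.21, -0.98, -0.17, and 0.37 in wild-type mice 1 to 4, 2.93, -0.72, 0.40, and 1.92 in Fcgr2b-/- mice 1 to 4, -0.79, 0.90, 0.57, and -0.18 in double-deficient mice 1 to 4, and 1.39, -0.01, 0.93, and 0.99 in Sting gt/gt mice 1 to 4. The Fcgr2b-/- group held the highest of all 16 mice and also 1 of the lowest. The log2 change was 1.03 in Fcgr2b-/- against wild-type mice (2.04-fold, SE 0.68; limma adjusted p = 1) and -1.01 in double-deficient against Fcgr2b-/- mice (SE 0.68; limma adjusted p = 1). A dimmer probe of Ciita, above background on 13 arrays, gave 0.88 and -0.61.

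**Figure D2:**
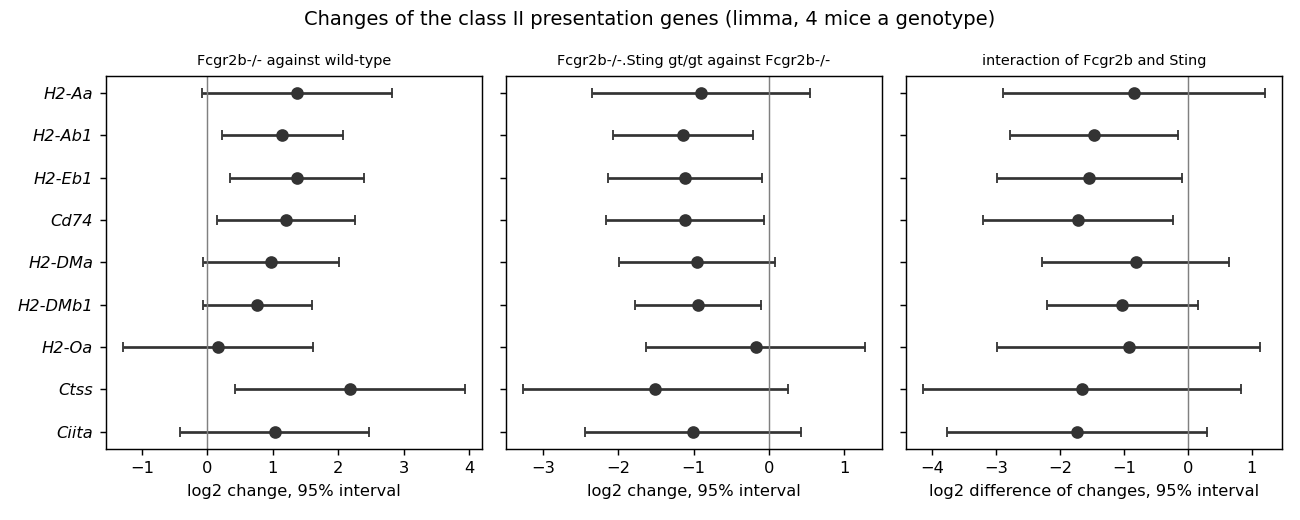
Log2 change (x axis) with its 95% interval from limma for the 9 members (y axis) in Fcgr2b-/- against wild-type mice, in double-deficient against Fcgr2b-/- mice, and in the interaction, the difference between the effect of Sting gt/gt in Fcgr2b-deficient and in Fcgr2b-sufficient mice. Points of all 9 members lie above 0 in the first panel and below 0 in the others, and intervals of 4, 4, and 3 members leave out 0.

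Over the 9 members, 6 had at least a 2-fold higher mean in Fcgr2b-/- than in wild-type mice, and 4 had an unadjusted limma p under 0.05 (H2-Ab1, H2-Eb1, Cd74, and Ctss), where 3.35% of the 35628 tested probes did and 0.0505% were called. The changes ran from 0.16 to 2.18 around the median of 1.15, while the median of all tested probes was -0.06. In double-deficient against Fcgr2b-/- mice, 5 members were at least 2-fold lower and 4 had an unadjusted p under 0.05 (H2-Ab1, H2-Eb1, Cd74, and H2-DMb1), beside 1.81% of all probes. The share of probes called in that comparison was 0%, and the median of all tested probes was 0.06. The two-sided exact permutation p of a member was 0.0857 to 0.943 in the first comparison and 0.114 to 0.943 in the second. These 2 comparisons share the Fcgr2b-/- mice, so mice 1 and 4 enter both.

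Without Fcgr2b-/- mouse 1 the median change of the members was 0.88 against wild-type and -0.74 in the double-deficient mice, and without mouse 4 the first was 0.86. The arrays lay on 2 slides. On slide 1, with 3 Fcgr2b-/- and 2 wild-type mice, 8 of 9 members were higher in Fcgr2b-/- mice (median 1.58, -0.12 to 2.38). On slide 2, where mouse 3 was the 1 Fcgr2b-/- mouse beside 2 wild-type mice, 6 of 9 were higher (median 0.28, -0.61 to 0.86). For double-deficient against Fcgr2b-/- mice the median was -1.73 on slide 1, with 1 double-deficient mouse, and 0.03 on slide 2, with 3 of them, where 5 of 9 members were higher. With the slide as a block in the fit, the medians were 1.11 and -0.97 and no member was called.

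Double-deficient and wild-type mice differed by a median of 0.02, from -0.18 for H2-DMb1 to 0.67 for Ctss, and 0 members had an unadjusted limma p under 0.05, beside 0.424% of all probes, with a share called of 0%. In Sting gt/gt against wild-type mice the median was 0.34, from -0.14 for H2-DMa to 0.75 for H2-Oa, again with 0 members at an unadjusted limma p under 0.05 (3.76% of all probes; called, 0%). This median depended on single mice, at 0.08 without wild-type mouse 2, 0.09 without Sting gt/gt mouse 1, and 0.70 without wild-type mouse 1. The intervals were wide, and that of Ctss in double-deficient against wild-type mice ran from -1.09 to 2.43. The interaction was negative for 9 of 9 members (median -1.47, from -1.73 for Ciita to -0.82 for H2-DMa), and beside a median of 0.03 over all probes, 3 members (H2-Ab1, H2-Eb1, and Cd74) had an unadjusted p under 0.05 and 0 were called. Of all probes, 6.27% had an unadjusted p under 0.05 in the interaction and 0% were called. The lowest adjusted limma p of a member in the interaction was 0.661.

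Across mice, Ciita ran with most of the other members. After genotype means were removed, its Pearson r over 16 mice was 0.96 with Cd74, 0.91 with H2-Eb1, 0.85 with H2-Ab1, 0.81 with Ctss, 0.80 with H2-Oa, 0.74 with H2-Aa, 0.69 with H2-DMb1, and 0.31 with H2-DMa. Two-sided permutation tests, with 100000 permutations of Ciita within genotypes and adjustment over the 8 relations, gave p = 2e-05 (adjusted 0.00016) for Cd74 and p = 0.00037 (adjusted 0.00148) for H2-Eb1. The relation passed for 6 of 8 members, but the share of all genes that would pass was not counted. The count thus cannot show a relation particular to the members. The permutation p was 0.0474 (adjusted 0.0542) for H2-DMb1 and 0.368 for H2-DMa, alone and adjusted. Spearman's rho was 0.95 for Cd74 (permutation p = 3e-05, adjusted 0.00024), 0.89 for H2-Eb1 (0.0011, 0.0044), 0.84 for H2-Ab1 (0.00318, 0.00636), 0.83 for H2-Oa (0.00287, 0.00636), 0.82 for Ctss (0.00465, 0.00649), 0.75 for H2-Aa (0.00487, 0.00649), 0.74 for H2-DMb1 (0.0156, 0.0178), and 0.37 for H2-DMa (0.24, 0.24). The Pearson values of permutation p were 0.00237 (adjusted 0.00474) for H2-Ab1, 0.00144 (0.00384) for H2-Oa, 0.00397 (0.00635) for Ctss, and 0.00738 (0.00984) for H2-Aa.

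After genotype means were removed, Fcgr2b-/- mice 1 and 2 lay farthest from the median of Ciita. Without these mice, r was 0.94 with Cd74, 0.89 with H2-Eb1, 0.81 with H2-Ab1, 0.79 with H2-Oa, 0.77 with Ctss, 0.70 with H2-Aa, 0.63 with H2-DMb1, and 0.24 with H2-DMa. With all 4 Fcgr2b-/- mice left out, a check added after the data were seen, 5 of 8 relations passed, and r was 0.96 with Cd74, 0.64 with H2-Aa (permutation p = 0.0449, adjusted 0.0599), and near 0 with H2-DMa. Within slide 1 (8 mice) r ran from 0.56 with H2-DMa to 0.997 with H2-DMb1, and within slide 2 (8 mice) from 0.00 with H2-DMa to 0.85 with Ctss. Genotype means were removed within each slide. The 1 double-deficient mouse on slide 1 and the 1 Fcgr2b-/- mouse on slide 2 thus became 0. Genotypes with 2 mice on a slide became mirrored pairs, so these r rest on few free values. Of 16382 genes, 99.9% had a lower r with Ciita than Cd74, 98.4% a lower one than H2-Eb1, and 69.1% a lower one than H2-DMa, and the median of all was -0.15. The share was 95.1% for H2-Ab1, 93.0% for Ctss, 92.1% for H2-Oa, 88.1% for H2-Aa, and 85.5% for H2-DMb1. How many of all genes would pass the permutation test was not counted. The 36 pairs of members had a median r of 0.79, from 0.15 to 0.96.

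**Figure D3:**
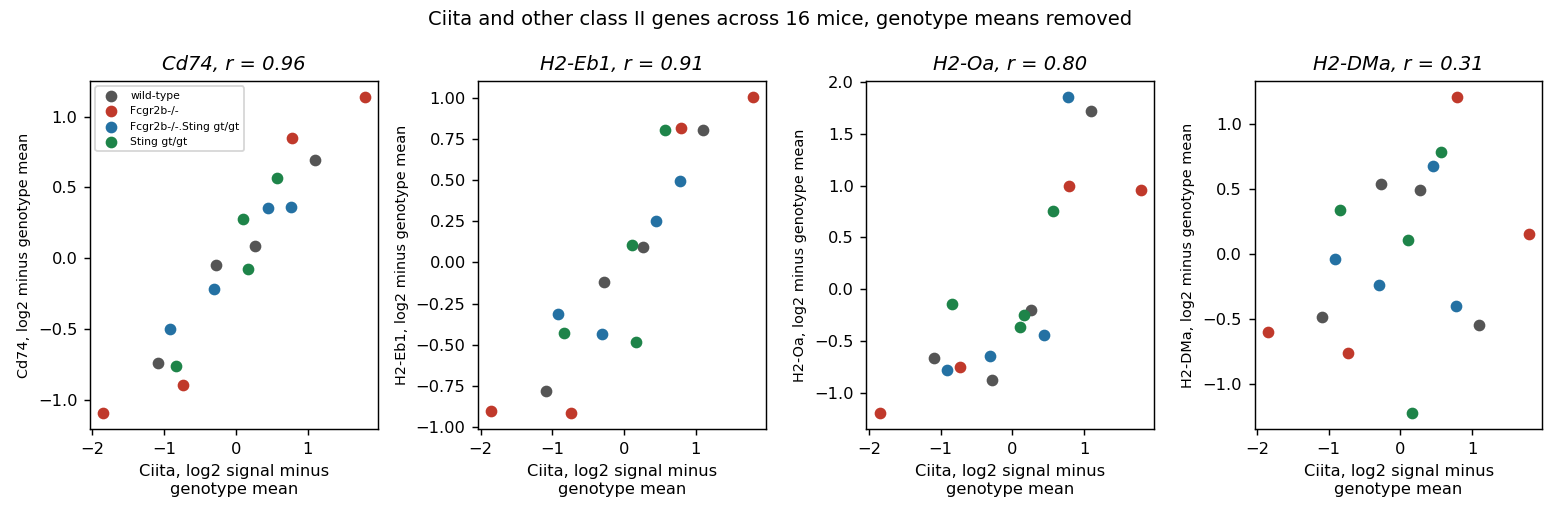
Log2 signal of Cd74, H2-Eb1, H2-Oa, and H2-DMa (y axes) against that of Ciita (x axis), each minus the mean of its genotype, where points are the 16 mice colored by genotype. Points follow Ciita most closely for Cd74 (r = 0.96) and least for H2-DMa (r = 0.31).

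The other genes of the pathway were described by lists. Of the partners of CIITA on the promoter, Rfx5, Rfxank, Rfxap, Nfya, Nfyb, Nfyc, and Creb1, 2 of 7 were higher in Fcgr2b-/- than in wild-type mice, with a median log2 change of -0.18 from -0.36 (Rfxank) to 0.04 (Creb1), beside -0.06 for all probes. Their median in double-deficient against Fcgr2b-/- mice was 0.11, and the largest change was that of Nfyb, 0.29. Of the interferon-gamma arm, the probe of Ifng itself, the cytokine, was above background on 7 of 16 arrays and on 1 of the wild-type arrays, so no change is given for it. Irf1, a transcription factor of the interferon response, differed by 0.63 (SE 0.50) in Fcgr2b-/- against wild-type mice and by -0.61 in double-deficient against Fcgr2b-/- mice, and Ifngr1, a chain of the receptor, by 0.59 (SE 0.36) and -0.54. No partner of CIITA and neither of Irf1 and Ifngr1 had an unadjusted limma p under 0.05 in these comparisons.

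Among 6 genes of general endosomal processing, 5 were higher in Fcgr2b-/- than in wild-type mice, with a median of 0.16. The largest changes were those of Ifi30 (the thiol reductase GILT, 0.33), Cst3 (cystatin C, 0.29), and Ctsl (cathepsin L, -0.28), each smaller than 1 SE. Their median in double-deficient against Fcgr2b-/- mice was -0.26. The ubiquitin ligases that direct class II to lysosomes, Marchf1 and Marchf8, differed by -0.29 and -0.16 in Fcgr2b-/- mice and by 0.03 and 0.16 in the double-deficient against Fcgr2b-/- mice. Of the other class II loci, H2-Eb2 was above background on 4 arrays and H2-DMb2 on 5, in each case on 0 of the wild-type arrays and on those of Fcgr2b-/- mice 1 and 4, so no fold is given for them. The level of H2-Eb2 was -2.58 and -3.57 in Fcgr2b-/- mice 1 and 4 and -6.11 and -5.99 in mice 2 and 3. H2-Ob, the partner of H2-Oa, differed by 0.09 (SE 0.43) between Fcgr2b-/- and wild-type mice. No gene of these lists was called.

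In whole kidney, more cells that carry class II and more class II RNA per cell cannot be told apart, so markers of such cells were read beside the members. By the study's account the kidneys were not perfused, so cells of the blood and of the kidney cannot be told apart either. Of the macrophage markers, 8 of 8 were higher in Fcgr2b-/- than in wild-type mice (7 at least 2-fold, median 2.26, all with an unadjusted limma p under 0.05) and 8 of 8 were lower in double-deficient than in Fcgr2b-/- mice (7 at least 2-fold, median -1.48, 5 with an unadjusted p under 0.05). In double-deficient against wild-type mice 8 of 8 were also higher, with a median of 0.73 and 0 at an unadjusted limma p under 0.05. The 4 tested B cell markers were all higher as well, with a median of 0.76. In that comparison the median was 0.02 for the members, 0.01 for the dendritic cell markers, and -0.03 for the T cell markers. Mrc1, the mannose receptor, was 6.40-fold higher in Fcgr2b-/- mice (SE 1.05 in log2; limma adjusted p = 1), Adgre1, a receptor that marks tissue macrophages, 5.90-fold (SE 0.78; limma adjusted p = 0.823), and Cd68 4.96-fold (SE 0.48; limma adjusted p = 0.203), and none was called. The mean level of the 8 markers was -0.41 to 1.59 in wild-type, 1.26 to 3.82 in Fcgr2b-/-, 0.67 to 1.74 in double-deficient, and 0.38 to 1.87 in Sting gt/gt mice. Fcgr2b-/- mice 1 and 4, with 3.82 and 3.62, stood above mice 2 and 3, with 1.34 and 1.26, as they did in the members (4.33 and 4.20 against 2.26 and 2.30).

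Of 8 dendritic cell markers 7 were tested, and Xcr1 was above background on too few arrays. Their median change was 0.44 in Fcgr2b-/- against wild-type mice and -0.56 in double-deficient against Fcgr2b-/- mice, and Itgax, which encodes CD11c and is shared with macrophages, was 5.71-fold higher in the first (log2 change 2.51, SE 0.75; limma adjusted p = 0.791). Cd209a was 3.04-fold lower in Fcgr2b-/- mice (log2 change -1.61, SE 0.99; limma adjusted p = 1). The mean level of the 7 ranged from -1.91 to -0.14 in wild-type, -2.38 to 0.31 in Fcgr2b-/-, -2.04 to -0.27 in double-deficient, and -1.35 to -0.10 in Sting gt/gt mice. Of 5 B cell markers 4 were tested, since Cd79a was not above background. Their median change was 0.22 and 0.31 in the same comparisons, with mean levels of -3.14 to -0.25, -2.50 to -0.35, -2.30 to 0.04, and -1.78 to -0.90 in the 4 genotypes in that order.

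The 5 T cell markers had a median change of 0.36 in Fcgr2b-/- against wild-type mice and -0.60 in double-deficient against Fcgr2b-/- mice. The largest were Cd3d at 1.04 (SE 0.82) in the first and Cd3g at -1.33 (SE 0.97) in the second. The -0.60 is the value of Cd8a, whose probe was above background on 6 of 16 arrays and on 1 of the wild-type arrays. Cd4 went the other way, at -0.15 (SE 0.27) and 0.17. The mean level of the 5 markers was -1.53 to -0.44 in wild-type, -1.65 to 0.69 in Fcgr2b-/-, -1.84 to -0.40 in double-deficient, and -1.40 to -0.22 in Sting gt/gt mice. Fcgr2b-/- mice 1 and 4 were the highest of all 16 in the mean of the T cell markers (0.69 and -0.06 against -1.13 and -1.64 in mice 2 and 3), though Cd4 was lowest in mouse 1 (2.06). They were also the highest of their group in the mean of the dendritic cell markers (0.31 and -0.29 against -2.38 and -1.44) and of the B cell markers (-0.35 and -1.82 against -2.50 and -1.95). The 7 kidney markers, which check the tissue, were at a mean level of 4.81 to 5.71 over all genotypes, with a median change of 0.04 in Fcgr2b-/- against wild-type mice. The 3 fat markers spread from -2.0 to 3.09 over the mice, with a median change of -0.38. They were high in wild-type mouse 1 (3.09), Fcgr2b-/- mouse 1 (2.45), and Sting gt/gt mouse 1 (1.78), each the mouse with the highest mean level of the members in its group, and at -1.64 in Fcgr2b-/- mouse 4. The double-deficient group differed: mouse 2, highest in the members (2.94), was lowest in the fat markers (-1.73), and mouse 3 was highest in them (0.39). The part of these cells in the levels of the members was not tested.

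**Figure D4:**
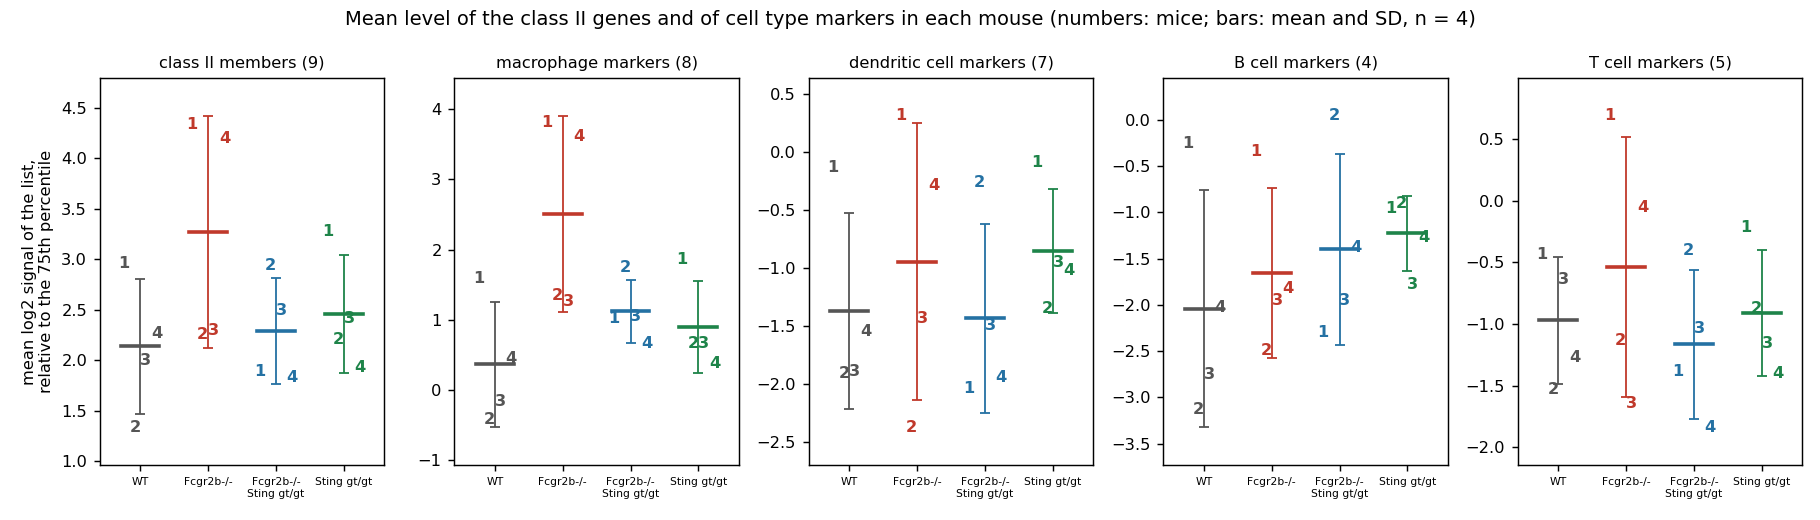
Mean level (y axis, log2 signal above or below the 75th percentile of its array) of the 9 members and of the tested markers of macrophages (8), dendritic cells (7), B cells (4), and T cells (5) in each mouse (numbers), with the mean and SD of 4 mice per genotype. Fcgr2b-/- mice 1 and 4 are the highest of their group in the members and in the macrophage, dendritic cell, B cell, and T cell markers, at 3.82 and 3.62 in the macrophage markers. In the B cell markers mouse 4 lies close to mouse 3 (-1.82 and -1.95).

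Genes were also ranked by how closely they followed the mean of the z-scored members over the 16 arrays, as a description with no test, since all values share the same arrays. The 10 closest genes outside the members were Psmb8 (r = 0.979), Vsir (0.974), Ccl5 (0.972), Alox5ap (0.969), Arhgdib (0.966), Calhm2 (0.964), Sash3 (0.961), Lsp1 (0.961), Tlr2 (0.960), and Arhgap9 (0.960). Psmb8 encodes a subunit of the immunoproteasome and lies in the MHC, Vsir the inhibitory surface protein VISTA, Ccl5 a chemokine of T cells and macrophages, Alox5ap a protein of leukotriene synthesis, and Tlr2 a receptor for bacterial lipoproteins. Arhgdib, Sash3, and Lsp1 are expressed mainly in blood cells. Of the members, H2-Eb1 (0.990) and H2-Ab1 (0.969) followed the mean most closely, and H2-DMa (0.695) and H2-Oa (0.673) least. The median r was 0.911 for the 8 macrophage markers, 0.718 for the dendritic cell markers, 0.707 for the T cell markers, 0.350 for the B cell markers, -0.128 for the partners of CIITA, and -0.136 for all 16382 genes.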

How the data were processed

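The authors deposited the scanner files of 16 arrays (Agilent Feature Extraction 11.0, per the labels), whose processed intensities are background-subtracted and not scaled between arrays. A log2 table of the same arrays, also deposited, was used as an alternative; how it was made is not given in the sources used here. From the scanner files, log2 intensity minus the 75th percentile of each array was computed without control and outlier spots, averaging the spots of a probe (Python 3.11.15, pandas 2.3.3, NumPy 2.4.6, SciPy 1.17.1). Probes above background on at least 4 of 16 arrays were tested with lmFit and eBayes (limma 3.58.1, R 4.3.3) in one fit of the 4 genotypes, and 1 gene is given by its brightest probe. Probes were named through a RefSeq table (GRCm38.p6), which matched 58.3% of 56605 probes. On simulated data for Fcgr2b-/- against wild-type (35615 probes, 200 changed), a log2 change of 2 was recovered for 59% and one of 3 for 81%. Smaller changes, such as the median of 1.15 of the members, were not simulated. The simulation gave a probe the same spread in all genotypes. Members and lists were chosen with earlier results of these data known. All 9 members are named, of each pathway list up to 3 genes with the largest changes in Fcgr2b-/- against wild-type or in double-deficient against Fcgr2b-/- mice, and the 10 genes most like the members; any other gene was chosen with its values in view. The alternatives were normexp background correction, scaling by the median, quantile normalization, the authors' table, the median of the probes, other filters, fits, and thresholds, the Mann-Whitney test, slide, replicate, and animal number as blocks, and each array left out. Normexp took median spot signals in place of means. The number of arrays limits the precision. Some results of the interferon-gamma list are not reported here.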

Additional observations from a re-analysis of the deposited data

Results flagged for a closer look

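The level of H2-Oa in double-deficient mouse 2 was -0.60, far from the other 3 mice of that genotype, which lay between -3.23 and -2.89. The gap to the nearest mouse was 0.872 of the range of the group, above Dixon's critical value for 4 samples. It was the 1 case among 36 combinations of member and genotype, and chance flags about 1 in 20. B cell markers were also highest in that mouse among the double-deficient mice, with a mean level of 0.04, and their part in the value was not tested.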

How the results depend on the processing

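No member was called under any alternative run. Some were run for the comparisons of 2 genotypes but not for the interaction. They were a fit of the groups compared and the two-tailed Mann-Whitney test, with and without adjustment. The adjusted Mann-Whitney result cannot count as a check. The smallest exact p of that test at this group size is 0.0286, which cannot pass adjustment over 35628 probes unless most reach it. Over the alternatives, 8 to 9 members were higher in Fcgr2b-/- than in wild-type mice, 0 to 1 were higher in double-deficient than in Fcgr2b-/- mice, and 0 had a positive interaction, while 2 to 8 were higher in double-deficient and 5 to 9 in Sting gt/gt than in wild-type mice, so the direction is not settled in the latter. Other filters, thresholds, and tests, the fit of the groups compared, and the replicate block could not move the changes of the members. They are thus no check of the direction. The smallest adjusted limma p of a member under any alternative was 0.208. With each mouse left out in turn, the median change ran from 0.86 to 1.57, from -1.39 to -0.74, and, for the interaction, from -1.77 to -1.06, and it was 0.99, -0.97, and -1.19 with scaling by the median. In Sting gt/gt against wild-type mice it ran from 0.08 to 0.70 when mice were left out, and was 0.09 with scaling by the median, 0.54 with quantile normalization, and 0.55 with the authors' table. In double-deficient against wild-type mice it ran from -0.16 to 0.38 when mice were left out.

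The sign of H2-Oa turned, from -0.17 to 0.74 in Fcgr2b-/- against wild-type mice and from -0.79 to 0.16 in double-deficient against Fcgr2b-/- mice when mice were left out, and to 0.0622 in the latter with the slide as a block. H2-DMa in Sting gt/gt against wild-type mice ran from -0.40 to 0.27 when mice were left out and was 0.0155 with the animal number as a random block, under which H2-DMb1 in double-deficient against wild-type mice was 0.0256. The relation of Ciita passed for 6 to 7 of 8 members when mice were left out and for 5 without the 4 Fcgr2b-/- mice, where r with H2-DMa was -0.00498. The cause of these turns was not tested. The replicate numbers did not pair the mice: the median correlation of same-numbered deviations was 0.27, -0.10, -0.13, and -0.12 for numbers 1 to 4, and 5 of 16 arrays correlated best with their own number. With the replicate block 0 members were called. Every genotype holds numbers 1 to 4, so this block cannot move the changes, and the medians stayed at 1.15 and -1.01. All 9 members were above background on all 16 arrays, and the dimmer Ciita probe on 13.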
